A study of Caenorhabditis elegans with 24 samples.

Results

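Heterotrimeric G proteins and their regulators were measured by 57 probe sets for 41 genes, out of 22548 probe sets tested and 17118 genes named on the array. They were chosen by name, as the probe sets annotated to a single gene whose symbol begins with gpa-, gpb-, gpc- or rgs-, or is goa-1, egl-30, gsa-1, odr-3, egl-10, eat-16, egl-8, ric-8 or acy-1. The alpha subunits made up 22 genes and 27 probe sets, the beta subunits 2 genes and 4 probe sets, and the gamma subunits 2 genes and 2 probe sets. Regulators of G protein signalling, or RGS genes, made up 12 genes and 19 probe sets, and 5 probe sets measured egl-8, ric-8 and acy-1. Another 2 probe sets matched these names but were annotated to several genes and were left out.

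A heterotrimeric G protein is an alpha subunit that binds GTP, held by a beta and a gamma subunit at the inner face of the membrane. A receptor that has bound its ligand makes the alpha subunit exchange GDP for GTP, the alpha subunit and the beta-gamma pair then act on effector enzymes and channels, and RGS proteins end the signal by speeding up GTP hydrolysis. In C. elegans, goa-1 (Go), egl-30 (Gq) and gsa-1 (Gs) are widely expressed in neurons and set the rate of transmitter release, whereas many of the gpa genes and odr-3 act in sensory neurons that detect odours, tastes and pheromone.

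The series profiled C. elegans neurons on Affymetrix arrays in 3 neuronal samples, each with its own reference. Embryonic pan-neural cells were GFP-positive cells sorted from dissociated F25B3.3::GFP (evIs111) embryos kept in culture for 24 h (3 arrays). Their reference was made of all live cells sorted from embryonic cell cultures kept for 24 h (4 arrays). The authors describe it as a profile obtained earlier. Larval pan-neural RNA was co-precipitated with a FLAG-tagged poly(A)-binding protein, PAB-1, that the pan-neural F25B3.3 promoter drove in mid-L2 larvae (gaIs153, F25B3.3::FLAG::PAB-1, 3 arrays). Larval A-class RNA came in the same way from unc-4::3XFLAG::PAB-1 larvae carrying the tag on an extrachromosomal array (wdEx257, 4 arrays). The larval reference was the RNA that a control precipitation pulled down from N2 wild-type larvae (5 arrays), and the same 5 hybridizations stand in both larval sets. All samples were labelled wild type, and all larvae had been fixed in 0.5% formaldehyde. The A-class cells are cholinergic motor neurons of the ventral cord, but the unc-4 promoter also drives the tag in a few other neurons. The sort enriched GFP-positive cells without purifying them fully, by the submitters' account, and RNA that binds the beads without the tag can be in every larval sample.

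Values are log2 RMA intensities, and the 3 sets were normalized separately, so a level is set only against the reference of its own set. The change in a neuronal sample is its mean log2 intensity minus that of its reference. A probe set was called where limma gave an adjusted p under 0.01 and the change was at least 1.5-fold. A mean log2 intensity under 5 is described as near the floor of the array, where between 27.4% and 36.5% of all probe sets lay, depending on the group. Replicate arrays of a group correlated with r2 between 0.918 and 0.991. The embryonic pan-neural arrays shared neither a hybridization day nor a chip lot with their reference, so day and sample cannot be told apart there. In the larval pan-neural set 1 day held both groups, with pan-neural replicates 2 and 3 and reference replicates 4 and 5. The A-class arrays shared no day with the reference.

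Genes that define neurons followed the labels where they were called, but many were not called. Of 12 pan-neural marker genes, 3 were higher in embryonic pan-neural cells, 10 in larval pan-neural RNA and 4 in A-class RNA, and none was lower. Of 6 cholinergic motor neuron markers, 1, 6 and 4 were higher in that order, and unc-4 itself was 3.14 ± 0.18 (SE) log2 units higher in A-class RNA. Of 7 ciliated sensory neuron markers, 3 and 5 were higher in the embryonic and larval pan-neural samples and 0 in A-class RNA. Among markers of other tissues, 4 of 8 body wall muscle genes and 2 of 6 germline genes were lower in embryonic pan-neural cells, where 1 of 7 intestine genes was higher. Larval pan-neural RNA had 4 of 7 intestine, 2 of 5 hypodermis and 2 of 6 germline genes lower, and no marker of these tissues or of the pharynx was called in A-class RNA. The rgef-1 probe set, for the gene whose promoter drives the pan-neural tags, lay near the floor in all 6 groups.

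Larval pan-neural RNA had the most calls, with 15 of the 57 probe sets higher and 1 lower, for 13 and 1 genes. Over all probe sets 6.08% were called higher and 3.34% lower in that comparison. Embryonic pan-neural cells had 6 probe sets of 5 genes higher and 1 lower, where 1.96% of all probe sets were called higher and 2.78% lower. Larval A-class RNA had 1 higher and 0 lower, where 0.776% and 0.115% of all probe sets were called. No A-class member reached an unadjusted p under 0.05 in the lower direction in limma, where 8.21% of all probe sets did, and 12 did in the higher direction, where 7.54% of all did. With hybridization day as a random block, gpc-1 and gpa-18 (181803_at) were the only embryonic calls left, and those of rgs-2, rgs-6, egl-8, gpa-12 and gpa-18 (182799_at) were lost. Over all probe sets that block left 121 higher and 220 lower, against 442 and 627 in the main fit.

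**Figure D1:**
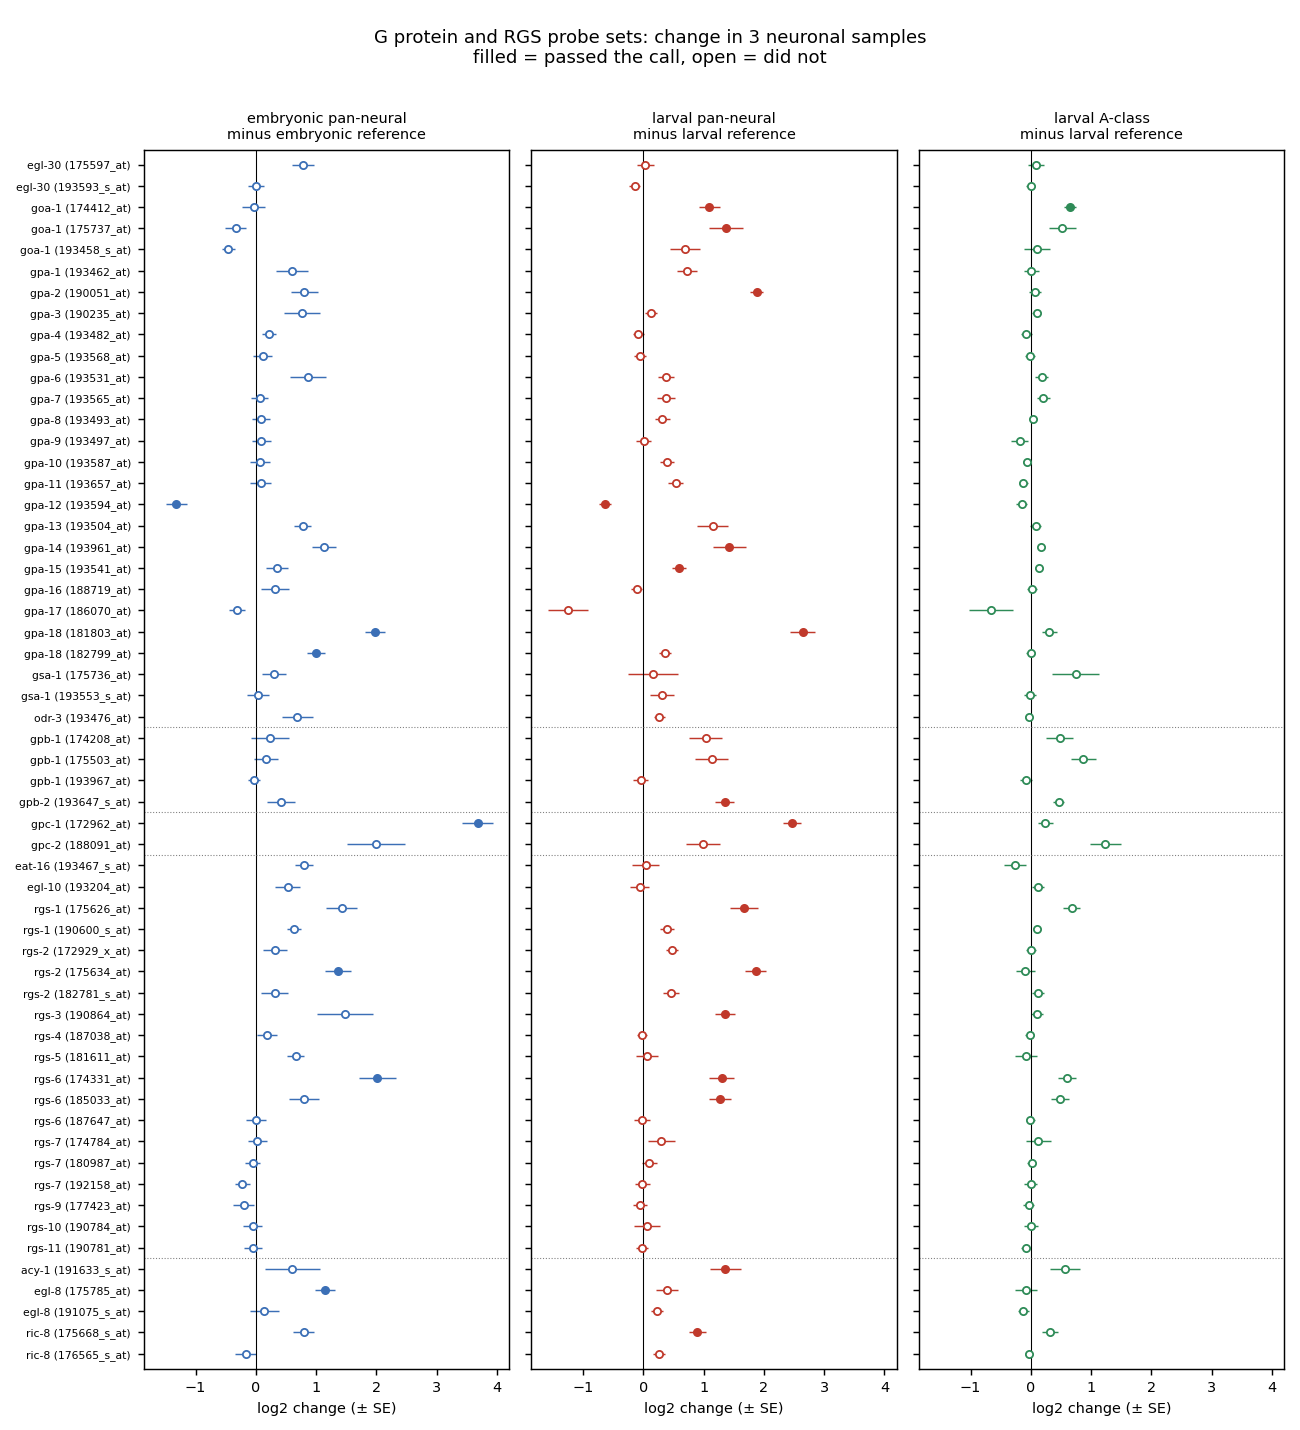
Log2 change (x axis, ± SE) of all 57 probe sets in embryonic pan-neural (left), larval pan-neural (middle) and larval A-class (right) samples against their references. Filled points passed the call, dotted lines part alpha, beta, gamma, RGS and effector genes, and the larval pan-neural panel holds 15 filled points right of 0 against 6 in the embryonic and 1 in the A-class panel.

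The median change of the 57 probe sets was 0.31 in embryonic pan-neural cells, against 0.04 over all probe sets. It was 0.37 in larval pan-neural RNA and 0.03 in A-class RNA, against 0.00 and -0.01 over all. Of the 57, 45, 44 and 33 lay above 0 in these comparisons, where 55.8%, 50.3% and 47.6% of all probe sets did. The groups did not overlap, with all neuronal arrays above all reference arrays, for 18 probe sets in embryonic pan-neural cells and 27 in larval pan-neural RNA, where 15.3% and 12.5% of all probe sets did so. The same was true of 6 in A-class RNA, where 3.92% of all did so. In the lower direction 3, 2 and 0 members did not overlap their reference in the embryonic, larval and A-class comparisons, where 13.4%, 11.5% and 2.81% of all probe sets did not. A pan-neural sample is a mixture of all neurons, so in each of these values fewer cells that express a gene and less RNA of it per cell cannot be told apart.

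Among the alpha subunits, gpa-18 had the largest enrichment in both pan-neural samples. In embryonic pan-neural cells its probe set 181803_at read 7.80, 7.70 and 7.66 log2 units, against 5.86, 6.04, 5.36 and 5.72 in the embryonic reference. Larval pan-neural RNA read 7.74, 7.18 and 8.01, against 4.75, 5.23, 5.21, 4.69 and 5.13 in the larval reference. All pan-neural arrays lay more than a log2 unit above every reference array of their set. The changes were 1.98 ± 0.17 (3.94-fold, adjusted p = 0.00104) and 2.64 ± 0.20 (6.25-fold, adjusted p = 4.65e-05), and neither call was lost when any 1 array was left out. A-class RNA read 5.21, 5.28, 5.34 and 5.18, against 4.79, 5.10, 5.12, 4.58 and 5.14 in its reference. The groups did not overlap, but the change of 0.31 ± 0.12 did not pass the test (adjusted p = 0.246).

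The other gpa-18 probe set, 182799_at, read 5.65, 5.73 and 5.92 in embryonic pan-neural cells, against 4.84, 4.77, 4.98 and 4.49 in the reference. That is a change of 1.00 ± 0.14 (adjusted p = 0.00518), called in the embryo, although the call held only without embryonic reference replicate 1 or 3 when each array was left out in turn. In larval pan-neural RNA the same probe set gave 0.36 ± 0.10 (adjusted p = 0.0349) and in A-class RNA 0.00 ± 0.07, neither of which passed.

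gpa-2, which acts in sensory neurons in the response to dauer pheromone, was higher in larval pan-neural RNA. Its probe set 190051_at read 5.96, 6.01 and 6.27, against 4.30, 4.11, 4.04, 4.23 and 4.30 in the larval reference, which lay near the floor. The change was 1.88 ± 0.11 (3.69-fold, adjusted p = 1.27e-05) and was called with any 1 array left out. In embryonic pan-neural cells it read 4.80, 4.93 and 4.13, against 4.09, 3.90, 3.51 and 3.75 in the reference. These groups were near the floor and did not overlap, and the change of 0.81 ± 0.22 did not pass (adjusted p = 0.047). A-class RNA read 4.25, 4.24, 4.07 and 4.49, against 4.24, 4.15, 4.01, 4.24 and 4.34 in its reference, so the groups overlapped near the floor.

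goa-1, the Go alpha subunit that holds back transmitter release in motor neurons, had 3 probe sets. On 174412_at larval pan-neural RNA read 12.03, 11.26 and 11.54, against 10.36, 10.37, 10.58, 10.47 and 10.80 in the larval reference. On 175737_at it read 9.23, 8.55 and 9.46, against 7.13, 7.40, 7.85, 7.88 and 8.32. On both, all pan-neural arrays lay above all reference arrays. The changes were 1.09 ± 0.18 (2.14-fold, adjusted p = 0.00245) and 1.37 ± 0.28 (2.58-fold, adjusted p = 0.00914). The first call was lost without larval pan-neural replicate 3 (1.13, adjusted p = 0.0123), and the second was kept only without larval reference replicate 5 or larval pan-neural replicate 2. The third probe set, 193458_s_at, gave 0.69 ± 0.25 and did not pass (adjusted p = 0.0857).

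goa-1 was also the only member called in A-class RNA. On 174412_at the 4 A-class arrays read 11.07, 11.04, 11.04 and 11.18, against 10.35, 10.16, 10.57, 10.41 and 10.67 in the reference. The A-class arrays were close together and all above the reference arrays, and the change was 0.65 ± 0.10 (1.57-fold, adjusted p = 0.0098). This call lay at the threshold: it was kept only without larval reference replicate 5 when arrays were left out in turn, with adjusted p up to 0.0364. The probe set 175737_at read 8.60, 7.96, 7.89 and 8.32 in A-class RNA, against 7.13, 7.46, 7.71, 7.80 and 8.27, so that its groups overlapped and its change of 0.52 ± 0.23 did not pass (adjusted p = 0.297).

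In the embryo goa-1 was not called. On 174412_at embryonic pan-neural cells read 9.99, 10.22 and 10.03, against 10.26, 10.32, 9.60 and 10.29 in the reference, a change of -0.04 ± 0.19. On 175737_at they read 7.49, 8.01 and 7.59, against 7.91, 8.34, 7.83 and 8.06, a change of -0.34 ± 0.17. Neither passed (adjusted p = 0.915 and 0.238), and the groups overlapped on both. On the third probe set, 193458_s_at, embryonic pan-neural cells read 4.95, 4.97 and 4.95, against 5.28, 5.57, 5.46 and 5.35. All pan-neural arrays lay below all reference arrays there. The change of -0.46 was not called, but it was lower at an adjusted p under 0.05 with no minimum fold. Tested directly, the larval enrichment on 175737_at exceeded the embryonic one by 1.70 ± 0.36 (3.25-fold, adjusted p = 0.00743), the only member called in that comparison, where 3.13% of all probe sets were called higher and 1.88% lower. The 2 enrichments differ in stage, but also in how the RNA was obtained, in the kind of reference and in the scanner. Stage and method therefore cannot be told apart in that comparison. No member was called lower there, and 9 members above 0 and 8 below it had an unadjusted p under 0.05 in limma, as had 13.8% and 13.01% of all probe sets. The other goa-1 probe sets gave differences of 1.13 ± 0.27 and 1.15 ± 0.30 (adjusted p = 0.0145 and 0.02), short of the threshold. The call on 175737_at was lost in 9 of 15 fits that left out 1 array.

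gpa-14 and gpa-15, alpha subunits known mainly from sensory neurons, were higher in larval pan-neural RNA, with lower and more scattered signals. gpa-14 (193961_at) read 4.49, 5.10 and 5.99, against 3.82, 3.60, 3.70, 3.85 and 3.87 in the larval reference. gpa-15 (193541_at) read 5.27, 4.94 and 4.99, against 4.63, 4.25, 4.55, 4.39 and 4.58. The reference of both was near the floor, and no array of the pan-neural sample overlapped it. The changes were 1.42 ± 0.27 (adjusted p = 0.00611) and 0.59 ± 0.12 (adjusted p = 0.00874). The gpa-14 call was kept only without larval pan-neural replicate 1 or 3, and the gpa-15 call was lost whichever array was left out. In embryonic pan-neural cells gpa-14 read 6.06, 6.09 and 5.39, against 4.96, 4.77, 4.63 and 4.48, with no overlap, and its change of 1.14 ± 0.20 lay just outside the threshold (adjusted p = 0.011). gpa-15 gave 0.35 ± 0.18 in the embryo, and both genes lay near the floor in A-class RNA.

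gpa-12, an alpha subunit known from the pharynx and the hypodermis, was the only member called lower than its reference in any of the 3 neuronal samples. Its probe set 193594_at read 6.19, 5.92 and 6.46 in embryonic pan-neural cells, against 7.80, 7.57, 7.40 and 7.27 in the embryonic reference. It read 6.44, 6.62 and 6.50 in larval pan-neural RNA, against 7.07, 7.32, 6.97, 7.23 and 7.19 in the larval reference. All pan-neural arrays lay below all reference arrays. The changes were -1.32 ± 0.18 (adjusted p = 0.00408) and -0.64 ± 0.10 (adjusted p = 0.0027). The embryonic call was lost without embryonic reference replicate 2 or 3 or pan-neural replicate 1 or 2, and the larval one without pan-neural replicate 1 (-0.60) or 3 (-0.63). A-class RNA read 7.05, 7.05, 6.92 and 6.83, against 6.95, 7.20, 6.96, 7.20 and 7.27, which overlapped (-0.15 ± 0.09, adjusted p = 0.49).

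Markers of hypodermis and pharynx, the tissues known to express gpa-12, were measured in the same samples. The mean log2 intensity of 5 hypodermis genes was 5.72 to 5.97 over the embryonic pan-neural arrays, against 6.39 to 6.84 in the reference, and 7.38 to 7.69 in larval pan-neural RNA, against 8.10 to 8.73. Of these genes 0 and 2 were lower by the call. The mean of 4 pharynx genes was 6.15 to 6.33 in embryonic pan-neural cells, against 6.27 to 6.83, and 7.52 to 8.36 in larval pan-neural RNA, against 8.16 to 9.0, with none called. The hypodermis means did not overlap their references, whereas the pharynx means did. The means of body wall muscle, intestine and germline markers also lay below their references without overlap in both pan-neural samples. Body wall muscle read 6.10 to 6.33 against 7.48 to 8.12 in the embryo, and larval intestine 8.79 to 9.14 against 9.60 to 9.97. The separation was therefore not particular to the hypodermis. The part of any tissue in the gpa-12 values was not tested.

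The other alpha genes had no call. egl-30, the Gq subunit that drives transmitter release, gave 0.78 ± 0.18 and 0.00 ± 0.13 on its 2 probe sets in embryonic pan-neural cells, 0.03 and -0.14 in larval pan-neural RNA and 0.08 and 0.00 in A-class RNA. gsa-1, the Gs subunit that activates adenylyl cyclase, gave 0.30 and 0.03 in the embryo and 0.16 and 0.31 in larval pan-neural RNA. Its probe set 175736_at read 7.45, 8.35, 8.60 and 8.40 in A-class RNA, against 7.77, 7.31, 8.65, 6.73 and 6.82 in the reference, and these scattered and overlapped (0.74 ± 0.39, adjusted p = 0.413).

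odr-3, the main alpha subunit of odour detection, read 6.88, 7.35 and 6.10 in embryonic pan-neural cells, against 6.04, 6.12, 6.13 and 6.05 in the reference. Replicates 1 and 2 stood above the reference and replicate 3 inside it, and the change of 0.69 ± 0.26 did not pass (adjusted p = 0.122). In larval pan-neural RNA odr-3 gave 0.27 ± 0.09 near the floor (adjusted p = 0.0641). gpa-13, another subunit of sensory neurons, lay near the floor in all groups with changes of 0.78 ± 0.14 in the embryo (adjusted p = 0.0103) and 1.15 ± 0.25 in larval pan-neural RNA (adjusted p = 0.0124), both just outside the threshold and with no overlap between groups. gpa-1 gave 0.61 ± 0.27 and 0.72 ± 0.17 in the embryonic and larval pan-neural samples (adjusted p = 0.172 and 0.0174).

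gpa-3, which acts with gpa-2 in pheromone sensing, read 4.72, 5.43 and 4.03 in embryonic pan-neural cells, against 4.28, 3.87, 3.92 and 3.78, and its replicates scattered widely (0.77 ± 0.31, adjusted p = 0.138). gpa-6 showed the same spread, with 7.22, 7.30 and 6.11 against 5.93, 5.73, 6.20 and 6.19 (0.87 ± 0.29, adjusted p = 0.0916). gpa-17 lay below its reference on all 3 larval pan-neural arrays, at 4.13, 4.50 and 4.29, against 5.63, 5.86, 6.49, 4.99 and 4.84 in the reference, and the spread of the reference kept the change of -1.25 ± 0.34 from passing (adjusted p = 0.0291). gpa-16, which positions the mitotic spindle with goa-1 in the early embryo, gave 0.32, -0.11 and 0.02 in the embryonic, larval pan-neural and A-class samples. The other 7 genes, gpa-4, gpa-5, gpa-7, gpa-8, gpa-9, gpa-10 and gpa-11, had changes between -0.19 and 0.54. The genes gpa-3, gpa-5, gpa-8, gpa-10, gpa-11 and gpa-13 lay near the floor in all 6 groups.

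gpb-2 was the beta subunit called in larval pan-neural RNA. It encodes the partner that pairs with the RGS proteins EGL-10 and EAT-16. Its probe set 193647_s_at read 10.59, 9.93 and 10.42, against 8.76, 8.95, 8.93, 9.17 and 9.01 in the larval reference. There was no overlap, and the change was 1.35 ± 0.15 (2.55-fold, adjusted p = 0.000386), called with any 1 array left out. In A-class RNA it read 9.34, 9.18, 9.35 and 9.44, against 8.66, 8.87, 8.84, 9.04 and 8.93, again with no overlap but with a change of 0.46 ± 0.09 that did not pass (adjusted p = 0.0224). In embryonic pan-neural cells it read 9.54, 9.77 and 9.14, against 9.49, 9.21, 8.62 and 8.97, and the groups overlapped (0.41 ± 0.23, adjusted p = 0.271).

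gpb-1, the beta subunit shared by the classical alpha subunits, had 3 probe sets that disagreed. In larval pan-neural RNA 175503_at read 10.89, 10.16 and 10.74, against 8.89, 9.11, 9.64, 9.58 and 10.10, and 174208_at read 8.03, 7.75 and 8.27, against 6.31, 6.75, 7.53, 6.86 and 7.48. Neither overlapped the reference, and neither passed, with changes of 1.13 ± 0.27 (adjusted p = 0.0185) and 1.03 ± 0.27 (adjusted p = 0.0272). On 175503_at the change was called without larval reference replicate 5 and with a spread shared over all groups. The third, 193967_at, gave -0.04 ± 0.12. In A-class RNA 175503_at read 10.35, 10.09, 10.20 and 10.13, all above the reference at 8.80, 8.93, 9.45, 9.45 and 9.97 (0.87 ± 0.21, adjusted p = 0.0559). In the embryo all 3 changes lay between -0.03 and 0.23.

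The gamma subunit gpc-1, which acts in sensory neurons in taste adaptation, had the largest change of all members, in embryonic pan-neural cells. Its probe set 172962_at read 8.22, 8.04 and 7.39 there, against 4.39, 4.15, 4.52 and 3.75 in the embryonic reference. Larval pan-neural RNA read 6.61, 6.82 and 7.09, against 4.35, 4.47, 4.04, 4.60 and 4.41. Both references lay near the floor, so the folds rest on dim values, and all pan-neural arrays lay far above them. The changes were 3.68 ± 0.25 (12.8-fold, adjusted p = 0.000679) and 2.47 ± 0.15 (5.52-fold, adjusted p = 1.44e-05), and both calls held with any 1 array left out. In A-class RNA gpc-1 read 4.29, 3.94, 3.90 and 3.99, against 3.82, 3.94, 3.44, 4.04 and 3.71, near the floor and overlapping (0.24 ± 0.13, adjusted p = 0.426). The larval pan-neural minus the embryonic enrichment was -1.21 ± 0.30, and this difference did not pass (adjusted p = 0.0159).

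gpc-2, the gamma subunit that is expressed widely, was above its reference in all 3 neuronal samples but was called in none. It (188091_at) read 10.32, 10.41 and 11.17 in embryonic pan-neural cells, against 8.52, 8.63, 9.82 and 7.57. It read 10.97, 10.97 and 10.74 in larval pan-neural RNA, against 10.25, 10.57, 9.08, 9.84 and 9.81, and 11.31, 10.94, 10.79 and 11.09 in A-class RNA, against 10.12, 10.47, 8.97, 9.71 and 9.74. No neuronal array overlapped its reference, while the reference arrays themselves spread over more than a log2 unit. The changes were 2.00 ± 0.48, 0.98 ± 0.28 and 1.23 ± 0.26 (adjusted p = 0.0312, 0.0382 and 0.0334). Its A-class change was the largest of the 57 in that sample. By another test, SAM, the authors listed gpc-2, rgs-1 and rgs-6 as enriched in larval A-class neurons. A missing call here is therefore not a finding that these genes are not enriched.

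**Figure D2:**
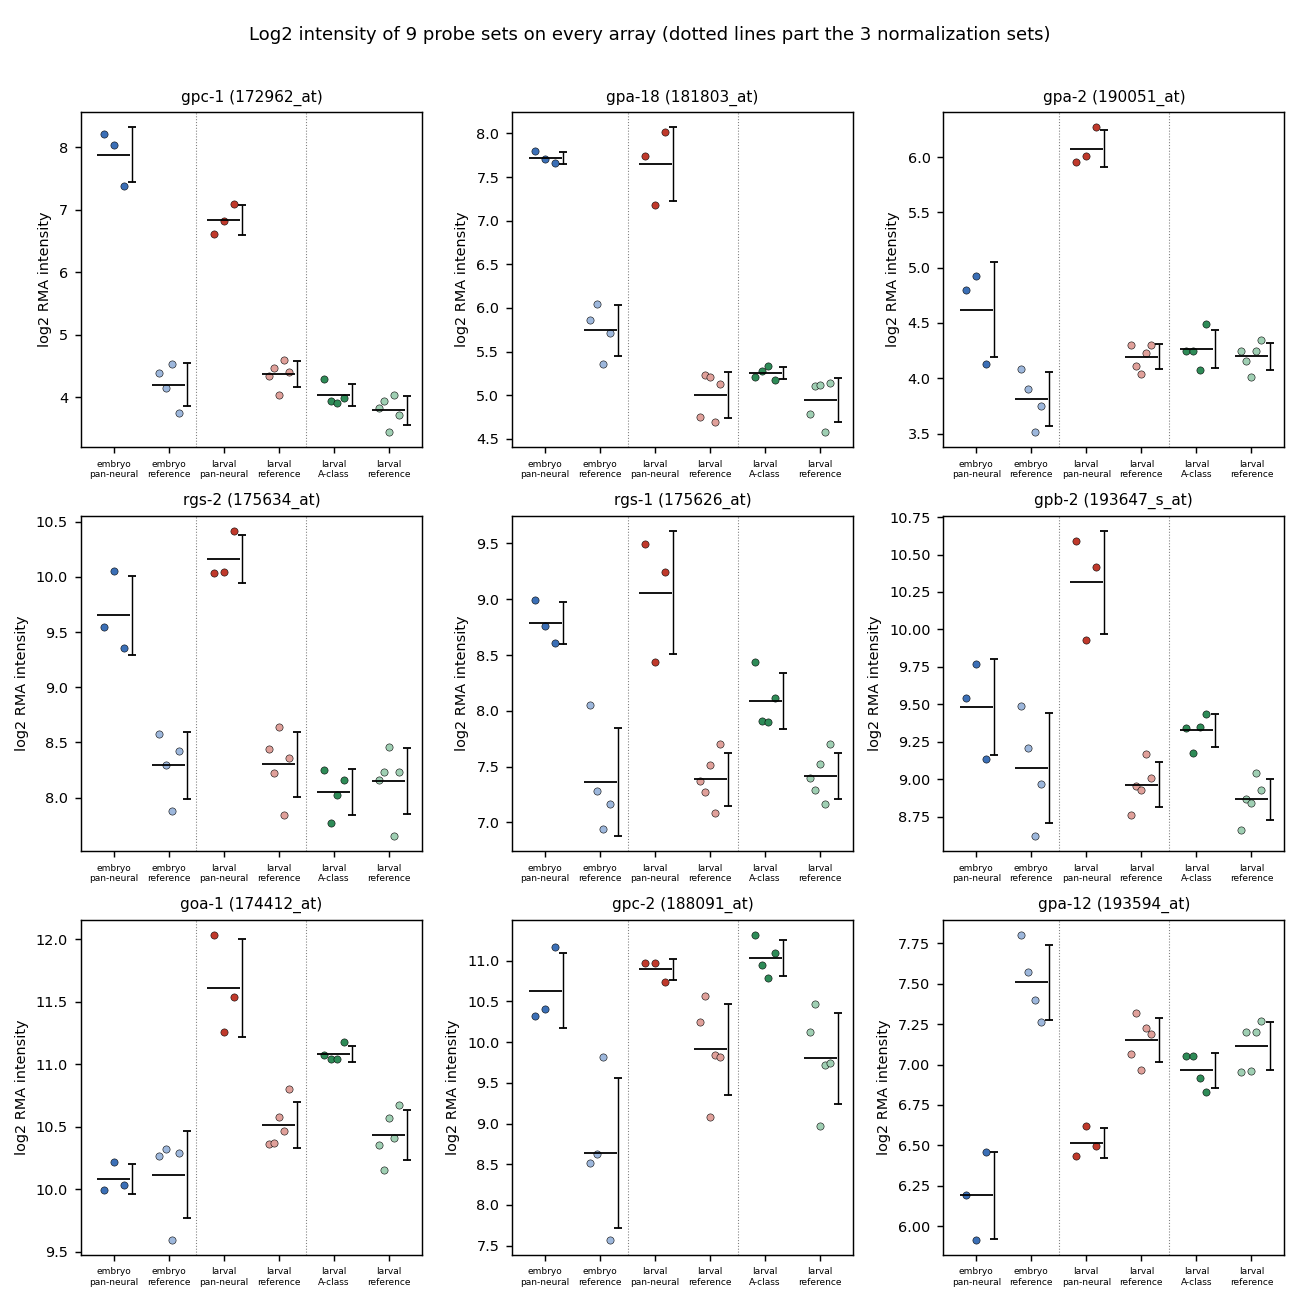
Log2 RMA intensity (y axis) of 9 probe sets on each array, with each neuronal sample left of its own reference, group means as lines and ± 1 SD as bars; 3, 4, 3, 5, 4 and 5 arrays from left to right. gpc-1, gpa-2 and rgs-2 stand above the reference in larval pan-neural RNA and overlap it in A-class RNA, whereas goa-1 and gpc-2 stand above it in both.

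Of the 12 RGS genes, 2 were called higher in embryonic pan-neural cells, 4 in larval pan-neural RNA and 0 in A-class RNA. By probe set these were 2, 5 and 0 of 19, where 1.96%, 6.08% and 0.776% of all probe sets were called higher. With so small a share in A-class RNA, 0 of 19 does not set the RGS genes apart. rgs-2, which with rgs-1 limits Go signalling in the egg-laying circuit, was called in both pan-neural samples. Its probe set 175634_at read 9.54, 10.05 and 9.36 in embryonic pan-neural cells, against 8.58, 8.30, 7.87 and 8.42, and 10.03, 10.04 and 10.41 in larval pan-neural RNA, against 8.44, 8.22, 8.64, 7.84 and 8.36. Neither pair of groups overlapped. The changes were 1.36 ± 0.22 (2.57-fold, adjusted p = 0.00769) and 1.86 ± 0.18 (3.63-fold, adjusted p = 0.000133). The embryonic call was kept only without embryonic reference replicate 1, and the larval call with any 1 array left out. In A-class RNA it read 8.25, 7.77, 8.02 and 8.16, against 8.16, 8.23, 8.46, 7.65 and 8.24, inside the range of the reference (-0.10 ± 0.16). The other rgs-2 probe sets, 172929_x_at and 182781_s_at, gave 0.47 ± 0.10 (adjusted p = 0.00844) and 0.46 ± 0.13 in larval pan-neural RNA, below the minimum fold of the call. In embryonic pan-neural cells the arrays of 172929_x_at stood 0.03, 0.85 and 0.09 above the reference mean. Those of 182781_s_at stood 0.03, 0.87 and 0.03 above it. Both probe sets overlapped their reference in the embryo and neither was called there.

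rgs-1 was called in larval pan-neural RNA. On 175626_at it read 9.49, 8.44 and 9.24, against 7.37, 7.27, 7.52, 7.08 and 7.70, with no overlap (1.67 ± 0.23, 3.18-fold, adjusted p = 0.00111). In embryonic pan-neural cells it read 8.99, 8.76 and 8.61, against 8.05, 7.28, 6.94 and 7.17, also with no overlap, and the change of 1.42 ± 0.26 fell just outside the threshold (adjusted p = 0.0114). A-class RNA read 8.44, 7.91, 7.90 and 8.11, all above the reference at 7.39, 7.29, 7.52, 7.17 and 7.71, but the change of 0.67 ± 0.14 did not pass (adjusted p = 0.0309). Its second probe set, 190600_s_at, was near the floor.

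rgs-3, which dampens signalling in sensory neurons, was called in larval pan-neural RNA. Its probe set 190864_at read 7.43, 6.78 and 7.32, against 5.61, 5.79, 5.69, 6.07 and 5.95. The groups did not overlap and the change was 1.36 ± 0.17 (2.56-fold, adjusted p = 0.000578). In embryonic pan-neural cells it read 7.68, 7.73 and 6.06, against 6.50, 5.46, 5.40 and 5.35. There replicates 1 and 2 stood far above replicate 3. Replicate 3 lay below reference replicate 1 at 6.50, an array far from the other reference arrays, and above all the others. The larger change of 1.48 ± 0.46 did not pass (adjusted p = 0.0717). A-class RNA read 6.05, 5.89, 5.76 and 5.96, against 5.67, 5.69, 5.74, 5.97 and 6.0, and overlapped.

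rgs-6 had 3 probe sets, of which 174331_at was called in both pan-neural samples. It read 7.58, 7.47 and 6.81 in embryonic pan-neural cells, against 5.77, 5.58, 4.57 and 5.16, and 6.14, 6.66 and 6.99 in larval pan-neural RNA, against 5.03, 5.17, 5.32, 5.26 and 5.70. All pan-neural arrays lay above the reference arrays. The changes were 2.02 ± 0.31 (4.05-fold, adjusted p = 0.00687) and 1.30 ± 0.20 (2.46-fold, adjusted p = 0.00215). The embryonic call was kept only without embryonic reference replicate 1, and the larval call was lost without pan-neural replicate 3 (1.10, adjusted p = 0.0115). On 185033_at larval pan-neural RNA read 7.46, 7.06 and 7.75, against 5.91, 6.11, 5.91, 6.44 and 6.40 (1.27 ± 0.19, adjusted p = 0.00151), with no overlap. Embryonic pan-neural cells read 8.11, 8.26 and 7.21 on that probe set, against 7.26, 7.08, 6.83 and 7.06, which overlapped and was not called. The third, 187647_at, gave 0.00 ± 0.17 and -0.02 ± 0.13 in the embryonic and larval pan-neural samples. In A-class RNA 174331_at and 185033_at gave 0.60 ± 0.15 and 0.48 ± 0.15 (adjusted p = 0.0576 and 0.128).

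The RGS proteins that pair with gpb-2 were not called. eat-16, which opposes EGL-30, read 7.90, 7.92 and 7.91 in embryonic pan-neural cells, against 7.29, 7.20, 6.73 and 7.23 (0.80 ± 0.15, adjusted p = 0.0136), with no overlap. It gave 0.04 ± 0.23 in larval pan-neural RNA and -0.26 ± 0.18 in A-class RNA. egl-10, which opposes GOA-1, gave 0.53 ± 0.21, -0.06 ± 0.16 and 0.12 ± 0.10 in the embryonic, larval pan-neural and A-class samples. rgs-5 read 5.24, 5.55 and 5.6 in embryonic pan-neural cells, against 4.95, 4.70, 4.66 and 4.91 (0.66 ± 0.13, adjusted p = 0.0177). The 5 genes rgs-4, rgs-7, rgs-9, rgs-10 and rgs-11 had changes between -0.22 and 0.30 over all their probe sets and samples, and rgs-9 and rgs-11 lay near the floor throughout. rgs-10 and rgs-11 are adjacent protein-coding genes on chromosome X in the WBcel235 annotation.

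Of the 3 genes that act beside the G proteins, each was called once. acy-1, the adenylyl cyclase that GSA-1 activates, read 7.34, 7.06 and 7.73 on 191633_s_at in larval pan-neural RNA, against 5.58, 5.91, 5.71, 6.16 and 6.69 (1.36 ± 0.25, 2.57-fold, adjusted p = 0.00499). ric-8, an exchange factor needed by several alpha subunits, read 7.93, 7.90 and 7.77 on 175668_s_at, against 6.90, 6.94, 7.21, 6.62 and 7.18 (0.90 ± 0.14, 1.86-fold, adjusted p = 0.00215). Neither overlapped its reference. The acy-1 call was kept only without larval reference replicate 1 or 5 or pan-neural replicate 2, and the ric-8 call was lost without pan-neural replicate 1 (0.86, adjusted p = 0.0125). egl-8, the phospholipase C-beta downstream of EGL-30, was called in the embryo instead, where 175785_at read 7.85, 7.99 and 7.78, against 6.99, 6.84, 6.33 and 6.72 (1.15 ± 0.17, 2.22-fold, adjusted p = 0.00525). That call was kept only without embryonic reference replicate 1 or 3. In larval pan-neural RNA the same probe set read 7.45, 7.95 and 7.98, against 7.19, 7.33, 7.77, 7.09 and 7.62, which overlapped (0.39 ± 0.19, adjusted p = 0.199). The second probe sets of egl-8 and ric-8 overlapped their references and were called in none of the neuronal samples. egl-8 (191075_s_at) gave 0.14 in embryonic pan-neural cells and 0.22 in larval pan-neural RNA, and ric-8 (176565_s_at) gave -0.17 and 0.26.

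**Figure D3:**
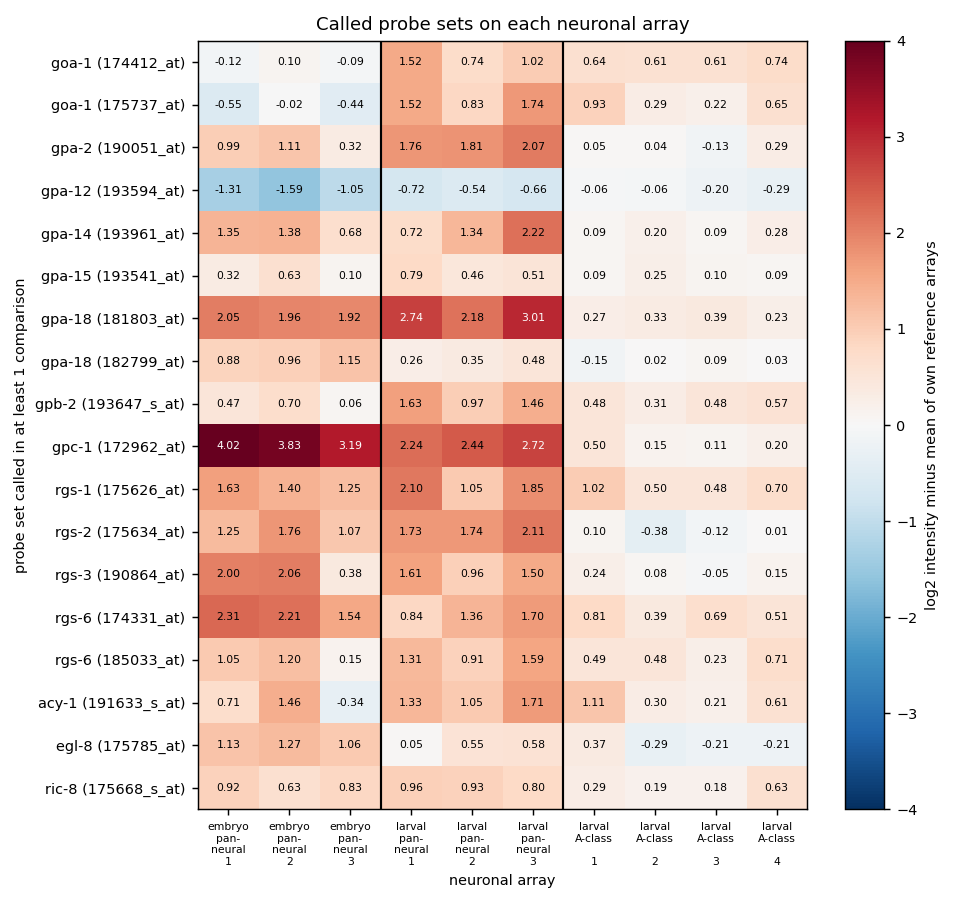
Log2 intensity of each neuronal array minus the mean of its own reference arrays, for the 18 probe sets called in at least 1 comparison (rows) on 3 embryonic pan-neural, 3 larval pan-neural and 4 larval A-class arrays (columns). Red is above and blue below the reference mean, and gpc-1 spans 3.19 to 4.02 in the embryonic and 2.24 to 2.72 in the larval pan-neural arrays, against 0.11 to 0.50 in the A-class arrays.

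The A-class enrichment was set against the larval pan-neural enrichment after the mean of the reference was subtracted in each set. Both enrichments rest on the same 5 reference hybridizations, and the spread of the reference is not in the error of this comparison. A total of 6 members were lower in A-class RNA and 0 higher, where 3.76% and 1.95% of all probe sets were called. In limma 30 and 1 members reached an unadjusted p under 0.05 in these directions, as did 13.2% and 12.96% of all probe sets. The median difference of the 57 was -0.30, against -0.01 over all probe sets.

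The 6 were gpa-18, gpc-1, rgs-2, gpa-2, rgs-3 and gpb-2. For gpa-18 the A-class arrays stood 0.27, 0.33, 0.39 and 0.23 log2 units above their reference mean, against 2.74, 2.18 and 3.01 for the larval pan-neural arrays (-2.34 ± 0.18, adjusted p = 0.000146). For gpc-1 they stood 0.50, 0.15, 0.11 and 0.20 above it, against 2.24, 2.44 and 2.72 (-2.23 ± 0.14, adjusted p = 7.46e-05). A-class and pan-neural arrays did not overlap for either gene. For rgs-2 the A-class values were 0.10, -0.38, -0.12 and 0.01, against 1.73, 1.74 and 2.11 (-1.96 ± 0.15, adjusted p = 0.000136). For gpa-2 they were 0.05, 0.04, -0.13 and 0.29, against 1.76, 1.81 and 2.07 (-1.82 ± 0.13, adjusted p = 0.000104). These 4 calls held with any 1 array left out. The A-class arrays overlapped their reference for gpc-1, rgs-2 and gpa-2, and stood above it for gpa-18. For rgs-3 the values were 0.24, 0.08, -0.05 and 0.15, against 1.61, 0.96 and 1.5 (-1.25 ± 0.16, adjusted p = 0.00185). For gpb-2 they were 0.48, 0.31, 0.48 and 0.57, against 1.63, 0.97 and 1.46 (-0.89 ± 0.16, adjusted p = 0.00752). The rgs-3 call was lost without pan-neural replicate 3 (-1.18, adjusted p = 0.0125), and the gpb-2 call without pan-neural replicate 1 or 3 or any 1 A-class array.

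The goa-1 and gpc-2 differences did not pass in this comparison. For goa-1 they were -0.44 ± 0.17 on 174412_at, -0.84 ± 0.25 on 175737_at and -0.59 ± 0.23 on 193458_s_at (adjusted p = 0.131, 0.0568 and 0.136). The difference was 0.25 ± 0.14 (adjusted p = 0.312) for gpc-2. The mean log2 intensity of the 7 ciliated sensory neuron markers was 5.38 to 5.44 over the A-class arrays, against 5.23 to 5.37 in their reference, and 6.34 to 6.68 over the larval pan-neural arrays, against 5.41 to 5.56. By the same comparison 6 of 12 pan-neural, 4 of 4 GABA and 4 of 7 ciliated neuron marker genes were lower in A-class RNA. None of them was higher, and the median differences were -0.95, -1.25 and -0.63. Of 6 cholinergic motor neuron markers, unc-4 was higher and cha-1 lower, with a median difference of -0.39. Among other tissues, 4 of 5 hypodermis, 2 of 7 intestine and 1 of 8 body wall muscle genes were higher and none was lower. No pharynx or germline marker was called in either direction. The part of the neuron types sampled in the member differences was not tested.

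Genes with several probe sets did not give 1 answer each. In larval pan-neural RNA 6 of the 11 such genes had at least 1 call, and none had a call on every probe set. The widest gap was on gpa-18, at 2.64 and 0.36, and rgs-6, rgs-2, rgs-1 and gpb-1 each had probe sets more than a log2 unit apart.

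**Figure D4:**
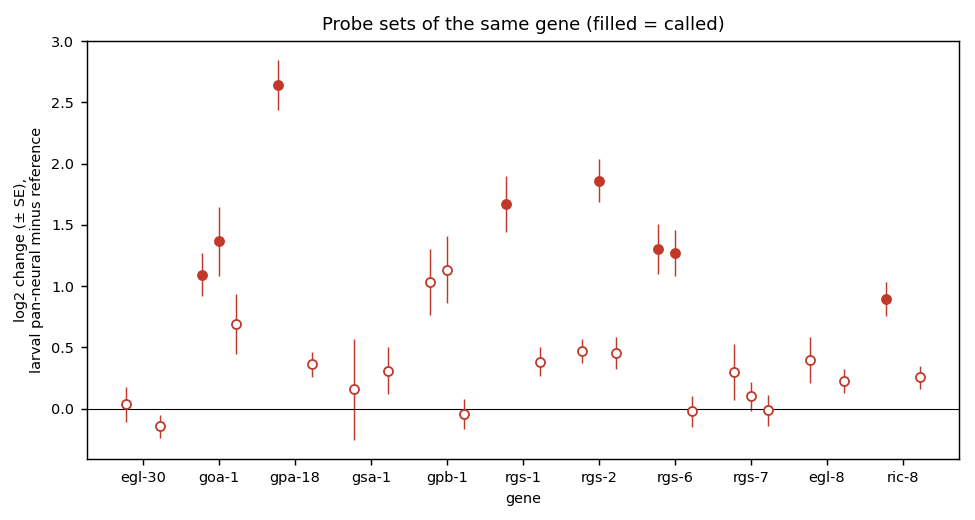
Log2 change (y axis, ± SE) in larval pan-neural RNA minus the larval reference for each probe set of the 11 genes that have more than 1. Filled points were called, and for gpa-18, rgs-6 and rgs-2 a called probe set stands beside others that were not called.

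Genes above and below the G proteins in the pathway were described from 3 lists. Of 20 measured receptors for amines, acetylcholine, GABA and glutamate, 2 genes were higher in embryonic pan-neural cells, 15 in larval pan-neural RNA and 1 in A-class RNA, and none was lower. The tyramine receptor tyra-2 was higher by 1.47 ± 0.23 in the embryo (adjusted p = 0.00722) and by 2.00 ± 0.09 in larval pan-neural RNA (adjusted p = 5.57e-06), and gave -0.14 ± 0.14 in A-class RNA. The serotonin receptor ser-4 (175772_s_at) was higher by 1.37 ± 0.23 in the embryo and 2.15 ± 0.14 in larval pan-neural RNA. Its other probe set, 176298_at, gave 0.13 ± 0.14 and -0.16 ± 0.08 there and was not called. The glutamate receptor mgl-1 was higher by 1.80 ± 0.10 and the octopamine receptor octr-1 by 1.22 ± 0.10 in larval pan-neural RNA.

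Of 19 measured effectors and modulators, 0, 6 and 1 genes were higher in embryonic pan-neural cells, larval pan-neural RNA and A-class RNA. The adenylyl cyclase acy-2 was higher in larval pan-neural RNA (1.72 ± 0.14, adjusted p = 7.16e-05) and in A-class RNA (0.84 ± 0.13, adjusted p = 0.00921). ags-3, an activator of G protein signalling that acts without a receptor, was higher by 2.00 ± 0.17 in larval pan-neural RNA, as were pkc-1 (1.42 ± 0.20 on 175656_at) and unc-13 (1.01 to 1.14 on 3 probe sets), which carry diacylglycerol signals to the release machinery. For pkc-1, 194116_s_at was also called there (0.71 ± 0.09), whereas 193083_s_at gave 0.11 ± 0.20 and was not. The 1 gene that was lower, in embryonic pan-neural cells, was gpr-2, which works with GOA-1 in spindle positioning. Of 6 genes of sensory transduction, ocr-2, a sensory channel subunit, was higher in the embryo (1.02 ± 0.15, adjusted p = 0.00553) and daf-11, a sensory guanylyl cyclase, in larval pan-neural RNA (1.44 ± 0.20 on 174815_at, adjusted p = 0.00124). The other daf-11 probe set, 191796_s_at, gave 0.13 ± 0.10 in larval pan-neural RNA and was not called. None of the 6 genes was called in A-class RNA. tax-4, a subunit of the cyclic nucleotide-gated channel, gave 0.95 ± 0.23 and 0.50 ± 0.11 on 175762_at in the embryonic and larval pan-neural samples (adjusted p = 0.0298 and 0.0137), short of the threshold. Its other probe set, 193093_s_at, gave 0.07 ± 0.09 and 0.17 ± 0.11 in these samples.

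Within the hybridization day that held both larval pan-neural groups, a comparison chosen after the data had been seen, the 15 members called higher gave changes of 0.48 to 2.69 with 2 arrays a group. These arrays are among those that made the calls, so the direction was fixed beforehand. gpa-18 gave 2.69, gpc-1 2.45, rgs-2 2.13, gpa-2 1.87 and gpa-12 -0.65 there, near their values over all arrays. Smaller than over all arrays were goa-1 at 0.91 on 175737_at and 0.76 on 174412_at, acy-1 at 0.97 and rgs-3 at 1.04. None was called, and all 16 had an unadjusted p under 0.05 in limma, as had 23.5% of all probe sets, where the lowest adjusted p of any probe set was 0.0137.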

How the data were processed

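RNA from sorted embryonic neurons, from 2 kinds of tagged larval neurons and from their references was amplified in vitro and hybridized to Affymetrix C. elegans arrays. The authors processed the arrays with RMA, a background correction, normalization and summary of probes, and deposited the values as linear intensity, 1 column for each of 24 samples. The 3 sets were normalized separately, and the deposited larval reference values stand in 2 versions of the same 5 hybridizations (r2 0.991 to 0.993), so the 24 columns come from 19 hybridizations. Titles put 3 larval reference samples in set 1, but their values follow the larval pan-neural set (median intensity 61.8 to 62.5 over the larval references, against 48.6 to 50.2 for the embryonic reference), and they were used there. The deposited array records gave hybridization day, chip lot and wash protocol, which are other than measurements, and 0 per-sample columns were left unused.

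Intensities were taken to log2 with no offset, since RMA leaves none at 0. Control probe sets (77 of 22625) were dropped. Gene names came from the platform annotation table given with the series: 20766 probe sets had 1 gene, 887 several and 895 none. All 41 member symbols were found in the RefSeq table of assembly WBcel235. Of the member probe sets, 12 have a suffix that marks probes shared with other transcripts.

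Each neuronal sample was compared with its reference in limma 3.58.1 under R 4.3.3 (lmFit and eBayes, two-sided), over 22548 probe sets with Benjamini-Hochberg adjustment over all of them. The authors used another test, SAM, with a fold minimum of 1.5, which the calls here keep. Their A-class list held gpc-2, rgs-1 and rgs-6, none of which was called in A-class RNA here. The difference between the 2 pan-neural enrichments was a contrast over 15 arrays. The difference between A-class and larval pan-neural enrichments was fitted on arrays minus their reference mean. Errors beside a log2 change are SE. Replicates are labelled biological, and their number limits the precision. The fits were tested on simulated data. Alternatives were an intensity trend, a robust fit, another threshold, a filter on dim probe sets, removal of shared-probe sets, joint quantile normalization, a spread shared over all groups, blocks for replicate number, day and record type, and leaving out each array. Every member gene is named, with array values for those called, and up to 4 genes of each pathway list by smallest adjusted p. The members and gene lists were chosen with earlier results of these data known.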

Additional observations from a re-analysis of the deposited data

Results flagged for a closer look

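In 72 groups of 4 or 5 arrays of the called probe sets, 4 held an array far from the others, and chance flags about 1 in 20 groups. The 72 are not all separate, since both versions of the larval reference were counted and some probe sets share a gene. On rgs-3 (190864_at) embryonic reference replicate 1 read 6.50, with the next at 5.46. On goa-1 (174412_at) embryonic reference replicate 3 read 9.60, with the next at 10.26. On gpa-15 (193541_at) larval A-class replicate 2 read 4.56, with the next at 4.41, both near the floor. On egl-8 (175785_at) larval A-class replicate 1 read 7.57, with the next at 6.99, and it was the only larval array washed under another protocol than the other larval arrays. The part of the wash in that value was not tested.

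Enrichment differed between neuronal samples, by a test of the difference itself, for 7 probe sets. That of goa-1 (175737_at) was larger in the larval than in the embryonic pan-neural sample by 1.70, where stage and method cannot be told apart. The A-class minus the larval pan-neural enrichment was -2.34 for gpa-18 (181803_at), -2.23 for gpc-1, -1.96 for rgs-2 (175634_at), -1.82 for gpa-2, -1.25 for rgs-3 and -0.89 for gpb-2.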

How the results depend on the processing

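No called member changed direction under any alternative run, and gpc-1 and gpa-18 (181803_at) in both pan-neural samples, and rgs-1, rgs-2 (175634_at), rgs-3, rgs-6 (185033_at), gpa-2 and gpb-2 in larval pan-neural RNA, were called with any 1 array left out. At an adjusted p under 0.05 with no minimum fold, 16 members were higher and 2 lower in embryonic pan-neural cells, 26 and 2 in larval pan-neural RNA, and 4 higher in A-class RNA. The difference between pan-neural enrichments then held 6 higher and 2 lower, and that between A-class and pan-neural enrichments 1 higher and 17 lower. Over all probe sets these differences held 1569 and 1219, and 1389 and 1690. For embryonic pan-neural cells (6 higher, 1 lower), an intensity trend gave 10 higher, a spread shared over all groups 20, and hybridization day as a random block 2 higher and 0 lower. Over all probe sets the main fit had 442 higher, and these alternatives gave 480, 1666 and 121. For larval pan-neural RNA (15 higher), only probe sets with a mean log2 intensity of at least 6 gave 9, and the same filter gave 3 lower in the A-class minus pan-neural difference (6 lower). Among all probe sets kept by that filter, 1114 were higher in larval pan-neural RNA and 633 lower in that difference. Within the shared day no larval pan-neural member was called, 0 higher and 0 lower, nor was any other probe set. The single A-class call became 0 with an intensity trend, a robust fit, joint quantile normalization, a shared spread, the day block or the record type block. Over all probe sets these gave 188, 165, 175, 292, 107 and 29 higher in that order, against 175 in the main fit. The larval minus embryonic difference (1 higher, 0 lower) gave 2 higher with an intensity trend and 2 with joint quantile normalization, 3 higher and 2 lower with a shared spread, and 0 higher with the day or record type block. Over all probe sets the main fit had 705 higher there. The trend gave 697, joint normalization 717, the shared spread 1253, the day block 500 and the record type block 630. The cause of these shifts was not tested. The record type block could not be fitted in the embryo, where all arrays have 1 record type.

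Leaving out 1 array at a time gave 2 to 9 higher and 0 to 1 lower in embryonic pan-neural cells: 2 higher without reference replicate 2 or 4 or pan-neural replicate 1 or 2, 4 without reference or pan-neural replicate 3, and 9 without reference replicate 1. It gave 10 to 15 higher and 0 to 1 lower in larval pan-neural RNA, and 0 to 1 higher and 0 lower in A-class RNA. It gave 0 to 3 higher and 0 to 2 lower in the larval minus embryonic difference, with 3 higher without embryonic reference replicate 3 or larval pan-neural replicate 2 and 2 lower without embryonic pan-neural replicate 3. It gave 0 higher and 4 to 9 lower in the A-class minus pan-neural difference, with 4 without pan-neural replicate 3 and 9 without pan-neural replicate 2. Calls over all probe sets moved as well. Leaving out 1 array gave 24 to 566 higher in embryonic pan-neural cells, 887 to 1343 in larval pan-neural RNA and 82 to 153 in A-class RNA. The larval minus embryonic difference had 401 to 917 higher, and the A-class minus pan-neural difference 446 to 916 lower.

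Arrays with the same replicate number did not all deviate together (r from 0.05 to 0.33 among embryonic arrays, -0.23 to 0.15 among larval pan-neural and reference arrays, and -0.42 to -0.08 among A-class and reference arrays), so the numbers were not taken to pair them. With the replicate number as a block, 4 members were higher and 0 lower in embryonic pan-neural cells, 10 higher and 1 lower in larval pan-neural RNA, 0 higher and 0 lower in A-class RNA, 1 higher and 0 lower in the larval minus embryonic difference, and 0 higher and 4 lower in the A-class minus pan-neural difference. Over all probe sets it left 168 and 271, 731 and 252, 12 and 0, 355 and 200, and 200 and 289, in the same order. With that block gpa-12 lost its call in both pan-neural samples and the 1 lower larval member was gpa-17, while in the embryo rgs-2, egl-8 and gpa-18 (182799_at) lost theirs and gpc-2 was called. In the A-class minus pan-neural difference rgs-3 and gpb-2 also lost their calls with the shared spread and with the day block.

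With 3 to 5 arrays a group, the embryonic calls changed with how the spread was estimated. gpc-2, odr-3 and rgs-3, whose replicates scatter, were not called in the embryo with the spread of its own arrays. All 3 were called with a spread shared over all groups, and so were eat-16, gpa-13 and ric-8. Over all probe sets the shared spread raised the higher calls from 442 to 1666. The part of replicate scatter in the added calls was not tested.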

Other observations

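One of the 2 probe sets left out because they are annotated to several genes, 189970_s_at (rgs-8.2 and rgs-8.1), gave -0.62 ± 0.11 in embryonic pan-neural cells (adjusted p = 0.0106) and 0.35 ± 0.13 in larval pan-neural RNA (adjusted p = 0.112). The larval minus the embryonic enrichment was 0.97 ± 0.18 and passed the call (adjusted p = 0.0029), and there too stage and method cannot be told apart. The value belongs to either gene or both. The other, 187584_at (rgs-3 and rbbp-5), gave -0.36 ± 0.12, 0.15 ± 0.10 and 0.01 ± 0.07 in embryonic pan-neural cells, larval pan-neural RNA and A-class RNA, none of which passed, whereas the rgs-3 probe set described above was called in larval pan-neural RNA.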
